A study of Mus musculus with 5 samples.

Results

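Recurrent sparse H3K27me3 peaks are places in the genome of the mouse molar mesenchyme where the 2 H3K27me3 libraries each gave a peak call at the same site, with few other calls around it. They were chosen from the peaks of H3K27me3 replicate 1 called against its input: a peak was kept if at least 1 base of it was overlapped by a peak of H3K27me3 replicate 2 called against the second input, and if no more than 4 other replicate 1 peaks had midpoints within 10 kb of its own. The rule kept 286 of the 22757 replicate 1 peaks. The members were thus selected by the positions of peaks in both libraries, so their recurrence and their number of neighbours describe the choice and are not results.

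The molars came from C57BL/6 mice of wildtype genotype at postnatal day 3, and the epithelium had been removed. Each library was thus taken as the dental mesenchyme of otherwise unmodified animals. The study's methods, however, describe the background of its mice as mixed, and this difference could not be settled here. Chromatin was sequenced in 5 libraries: 2 precipitated with an antibody to H3K27me3, 1 with IgG as a negative control, and 2 of input chromatin. Nothing in the labels tells if different animals or pools were used for the 2 precipitations, and peak lists hold no marker levels against which the tissue could be checked. Replicate 1 held 31245609 tags of 49 bp and replicate 2 held 50565700 tags of 74 bp, against 23920823 and 52368566 tags in their inputs and 25542591 in the IgG library.

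H3K27me3, trimethylation of lysine 27 on histone H3, is laid down by Ezh2, the catalytic subunit of Polycomb repressive complex 2 (PRC2), and marks genes that a cell keeps silent. In most tissues it covers broad domains over the CpG-rich promoters of developmental transcription factors whose lineage is not the tissue's own, such as homeobox and T-box genes. Away from those domains, an isolated peak can lie at a single silent promoter, in a gene body or far from any gene.

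Sequences of 11 members are shown to let the kinds of site be compared. All are the plus strand of GRCm38, 5′ to 3′, with the CpG dinucleotides in capitals. The first 8, of 17 that met the conditions, are members near a coding gene's 5′ end that were also called against IgG and had the highest replicate 2 fold enrichment. They lie at chr15:89059225-89059351, chr2:155774753-155774935, chr2:130405778-130405950, chr1:187607734-187607949, chr2:113758278-113758356, chr14:122451703-122451977, chr10:127534948-127535203 and chr5:33433324-33433437, in the order printed.
Panx2: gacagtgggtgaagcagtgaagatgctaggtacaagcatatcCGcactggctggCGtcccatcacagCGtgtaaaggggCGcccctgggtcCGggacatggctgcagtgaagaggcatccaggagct
Mmp24: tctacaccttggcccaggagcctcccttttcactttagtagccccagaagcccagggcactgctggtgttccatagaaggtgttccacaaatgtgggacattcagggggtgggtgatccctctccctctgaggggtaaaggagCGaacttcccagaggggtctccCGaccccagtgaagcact
1700020A23Rik: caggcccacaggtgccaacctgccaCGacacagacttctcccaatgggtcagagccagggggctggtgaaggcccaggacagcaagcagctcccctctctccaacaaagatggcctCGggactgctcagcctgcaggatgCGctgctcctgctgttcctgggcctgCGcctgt
Esrrg: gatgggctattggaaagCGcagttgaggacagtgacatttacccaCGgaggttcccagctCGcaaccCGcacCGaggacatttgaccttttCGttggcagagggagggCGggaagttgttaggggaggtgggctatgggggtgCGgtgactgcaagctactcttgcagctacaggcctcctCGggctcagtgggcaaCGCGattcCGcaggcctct
Grem1: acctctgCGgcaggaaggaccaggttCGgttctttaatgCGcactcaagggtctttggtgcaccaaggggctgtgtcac
Gm5089: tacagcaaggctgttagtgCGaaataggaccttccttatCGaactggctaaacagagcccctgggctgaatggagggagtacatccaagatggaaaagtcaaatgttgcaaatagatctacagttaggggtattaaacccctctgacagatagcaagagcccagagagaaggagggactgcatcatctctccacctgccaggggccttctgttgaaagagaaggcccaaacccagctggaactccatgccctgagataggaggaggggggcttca
Nxph4: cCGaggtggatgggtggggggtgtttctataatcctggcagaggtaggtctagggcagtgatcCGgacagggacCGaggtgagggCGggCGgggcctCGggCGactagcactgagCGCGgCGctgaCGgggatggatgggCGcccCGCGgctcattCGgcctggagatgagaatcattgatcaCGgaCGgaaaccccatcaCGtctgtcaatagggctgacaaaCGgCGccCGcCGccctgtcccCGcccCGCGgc
Nkx1-1: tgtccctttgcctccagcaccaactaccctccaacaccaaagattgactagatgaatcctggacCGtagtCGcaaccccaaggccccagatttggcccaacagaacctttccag

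The same 1 kb rule took in very different sequences. The Nxph4 peak held 25 CpG at 66.8% GC and the Esrrg peak 12 in 216 bp at 59.7% GC, while the Gm5089 peak held 2 in 275 bp at 50.9% GC. A further 3 members, chosen for display after their values were seen, lie at chr4:89291181-89291371 in an intron of Cdkn2a, which encodes the cell cycle inhibitors p16 and p19, and at 2 sites whose sequence is present in several copies, chr9:3022101-3022205 and chr13:77438908-77439028.
Cdkn2a: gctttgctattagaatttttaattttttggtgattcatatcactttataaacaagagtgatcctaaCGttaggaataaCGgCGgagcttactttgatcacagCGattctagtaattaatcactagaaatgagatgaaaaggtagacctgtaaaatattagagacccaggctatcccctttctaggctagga
chr9 member: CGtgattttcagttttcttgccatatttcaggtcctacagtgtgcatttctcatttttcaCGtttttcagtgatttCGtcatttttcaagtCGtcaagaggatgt
chr13 member: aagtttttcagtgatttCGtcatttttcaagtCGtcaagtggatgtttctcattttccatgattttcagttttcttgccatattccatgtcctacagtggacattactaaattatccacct

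The chr9 and chr13 members lie on different chromosomes but shared an unbroken run of 37 bases, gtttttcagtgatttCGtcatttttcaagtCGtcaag. A run of 20 bases or more of the chr9 member, on either strand, was present in 3 members, those 2 and 1 at chr9:3002279-3002367. The GC content of the printed pair was 37.1% and 34.7%, and the chr9 member carried 4 CpG in 105 bp.

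Of the 19903 replicate 1 peaks with 4 or fewer neighbours, 286 (1.44%, with a 95% Wilson interval from 1.28 to 1.61) were recurrent, against 363 of 2854 (12.7%, 11.5 to 14.0) of those with 5 or more neighbours and 2.85% of all replicate 1 peaks. These shares restate the rule. Among the sparse peaks the share was 0.694% with no neighbour (89 of 12829), 1.73% with 1, 2.80% with 2, 5.51% with 3 and 4.88% with 4. Beyond 10 neighbours it was 18.8% (140 of 745). All intervals in the text cover counting error only. They take peaks as independent, although some members share a locus, and whether 2 intervals overlap is not a test.

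**Figure D1:**
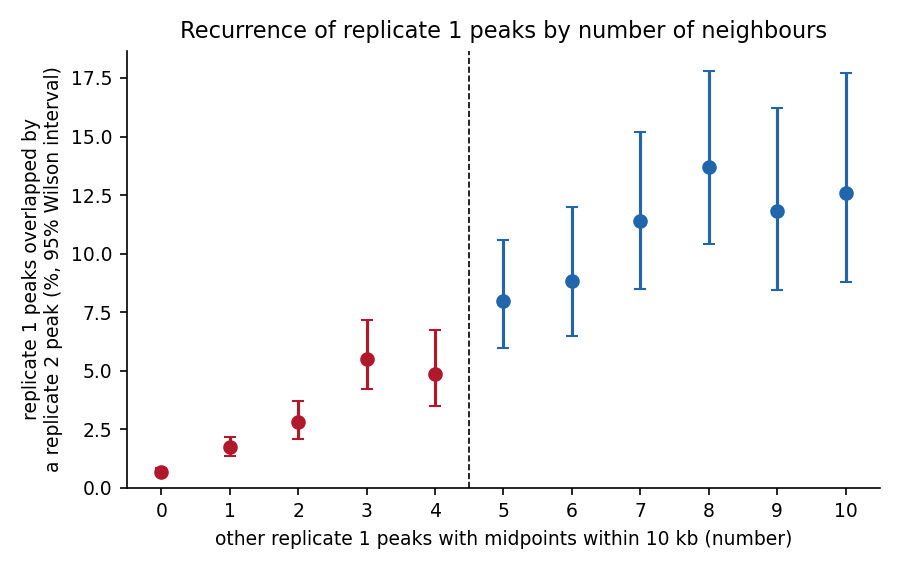
Share of replicate 1 peaks overlapped by a replicate 2 peak (y axis, %, points with 95% Wilson intervals) against the number of other replicate 1 peaks within 10 kb (x axis). The dashed line marks the limit of 4 neighbours used to choose the members: the share was 0.694% at 0 neighbours, 4.88% at 4 and 7.97% at 5.

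Few members lay near another member, although 197 of them had 1 to 4 other replicate 1 peaks within 10 kb. They fell into 271 loci when members within 10 kb were joined, 258 of them holding 1 member, 11 holding 2 and 2 holding 3. The loci with 3 members were nearest to Pou3f3 and Msx3, genes for a POU-domain and a homeodomain transcription factor. Pairs were nearest to Meis2, Mnx1, Hhex, T, Scrt1 and Hic1, all of which encode transcription factors, and to Ythdf1, Grid2ip, Robo3, Raet1e and Gm10715. The 286 members overlapped 283 different replicate 2 peaks, and 6 members shared theirs with another member. These were 2 members each at Pou3f3, Msx3 and T, so those loci hold fewer replicate 2 peaks than members. Chromosome 2 carried the most members (31, or 10.8%, beside 8.34% of all replicate 1 peaks), the X chromosome 3 (1.05%, beside 0.984%) and the Y chromosome none, where no replicate 1 peak was called.

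The overlaps were short. Members were a median of 155 bp long (46 to 749) in replicate 1, beside 119 bp over all replicate 1 peaks, and 250 bp in replicate 2, beside 181 bp over all replicate 2 peaks. The shortest length in each list, 46 bp in replicate 1 and 71 bp in replicate 2, equalled the fragment length given for that list. A longer peak is more easily overlapped, so the rule favours length. The median overlap was 78 bases, or 66.7% of the replicate 1 peak. Of the members, 83 lay wholly inside their replicate 2 peak and 10 shared fewer than 10 bases with it. The peak near Mgl2, a lectin of macrophages, shared 1 base.

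Pileup is the deposited level of the stacked fragment signal, a single value for the whole called region. It was close to the lowest that was called in each list. The lowest replicate 1 value, 3.12, is not a whole number of fragments, so the pileup of that list is a scaled signal. Pileups of the 2 replicates were not put on a common scale. In replicate 1 the members' median pileup was 3.32 (3.12 to 38.2), beside 3.19 for all peaks, and in replicate 2 it was 6.27 (6.00 to 77.1), beside 6.16. In replicate 1, 90 members (31.5%, 26.4 to 37.1) sat at the list's lowest value of 3.12, beside 44.5% of all peaks. In replicate 2, 91 (31.8%) sat at its lowest value of 6.00, beside 37.9% of all replicate 2 peaks, and 26 members (9.09%) were at the lowest value in both. The median fold enrichment over input was 2.68 for replicate 1 and 2.46 for replicate 2. Fold enrichment reached 3 in both libraries at 2 members, named here after their values were seen. The first, in an intron of Hrk, which encodes a pro-apoptotic BH3-only protein, was 46 bp long, the shortest called in replicate 1. It had a pileup of 4.05 in replicate 1 and 8.84 in replicate 2 (fold 3.17 and 3.38). The other, in an intron 194370 bp from the 5′ end of Atg4a, an autophagy protease on the X chromosome, had 4.3 and 8.86 (fold 3.14 and 3.39).

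A few members stood far above the rest. Replicate 2 pileup was 20 or more at 8 members and under 9 at 275. The highest lay in an intron of Chl1, a neural cell adhesion molecule, at chr6:103649096-103649175. Its pileup was 38.18 in replicate 1 and 77.08 in replicate 2. Its fold enrichments were only 1.74 and 1.47, so the input was high there too. The second, at chr2:181917382-181917496, is intergenic and 53045 bp from the 5′ end of Polr3k, which encodes an RNA polymerase III subunit. Its pileup was 19.68 and 69.33, with folds of 1.85 and 1.64, and all of its bases are soft-masked as repeats. Neither of these was called against IgG, and both have a median copy number of 1 over their 31-base words.

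The other 6 members with a replicate 2 pileup of 20 or more were repeated in the genome. Copy number was read as the median number of times that a member's 31-base words occur in the assembled nuclear chromosomes of GRCm38. Copies missing from that assembly were not counted. By this measure 8 members (2.80%, 1.42 to 5.42) were above 1 copy, beside 0.831% of all replicate 1 peaks. Of these, 4 lie near the start of the assembled chromosome 9, with 4 to 17 copies and replicate 2 pileups of 41.06, 59.26, 54.91 and 49.18. The member on chromosome 13, in an intron of 2210408I21Rik, had 26 copies and pileups of 29.61 and 47.63. The member at chr17:13552150-13552302 had 2 copies and pileups of 9.43 and 20. The remaining 2 repeated members, nearest to Pdpn and Rpl10l, had ordinary pileups of 3.67 and 4.21 in replicate 1 and of 6.00 and 6.17 in replicate 2. Over the 8, the median pileup was 24.3 in the first library and 44.3 in the second, the median fold enrichment 2.21 and 1.84, and between 91.8% and 100% of the bases were masked. By the study's methods only uniquely mapped reads were used for peak calling. The part of copy number in these pileups was not tested.

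The rest of the 10 highest were single copy and lower. A peak 1227 bp from the 5′ end of Gm36079 had pileups of 5.12 and 14.26, and 1 at Raet1e, which encodes a ligand of the natural killer cell receptor NKG2D, had 5.61 and 10.28. Within 100 kb of an assembly gap lay 11 of all the members (3.85%, 2.16 to 6.75), beside 1.01% of all peaks. Of the members in a single copy it was 6 of 278 (2.16%, 0.993 to 4.63), an interval that takes in the share over all peaks. The Cdkn2a member, 25429 bp from a gap, is among these.

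**Figure D2:**
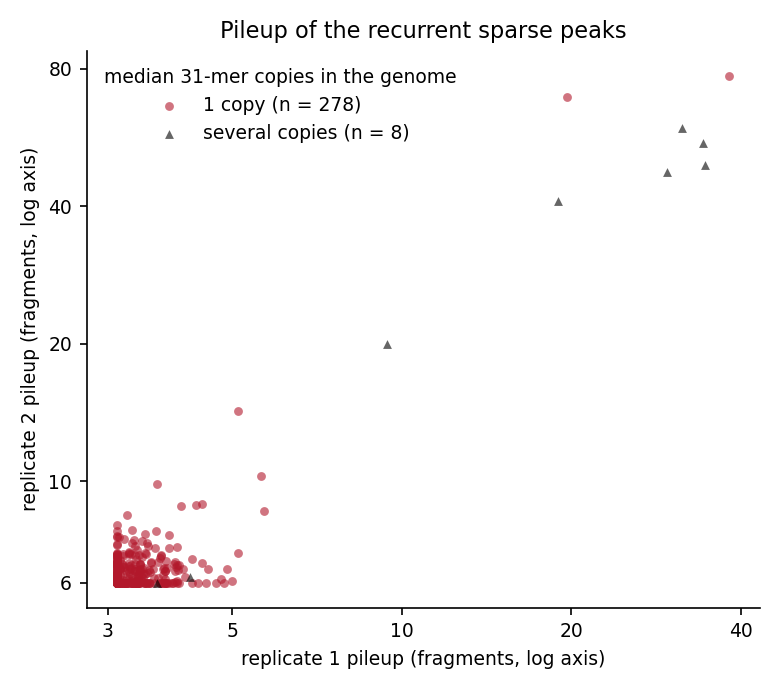
Pileup of each member in replicate 1 (x axis) and replicate 2 (y axis), as deposited, on log axes. Circles are the 278 members in a single copy and triangles the 8 with several copies. The axes are labelled as fragments, but the replicate 1 values are a scaled signal. Most members lie near the lowest called values of 3.12 and 6.00, while 6 of the 8 repeated members and 2 single-copy members reach 20 or more in replicate 2.

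Members as a whole lay nearer to genes than the other sparse peaks, but not at every neighbour number. The median distance to the nearest protein-coding 5′ end (GENCODE M21) was 16958 bp, beside 36760 bp over all replicate 1 peaks, 48695 bp over the other sparse peaks and 6004 bp over recurrent peaks with 5 or more neighbours. A coding 5′ end lay within 10 kb of 123 members (43.0%, 37.4 to 48.8), against 22.8% (22.2 to 23.4) of the other sparse peaks and 69.1% (64.2 to 73.7) of the recurrent peaks with more neighbours. With 4 neighbours the members' median distance was 9482 bp and that of the other peaks 9038 bp, and 50% and 52.5% had a coding 5′ end within 10 kb. With no neighbour these were 45779 and 63258 bp, and 24.7% (16.9 to 34.6) and 16.1% (15.5 to 16.8). The nearest was over 100 kb away for 54 members (18.9%), beside 31.1% of all peaks. By annotation, 150 members (52.4%) were intergenic, 84 (29.4%) intronic, 26 (9.09%) touched a coding exon, 23 (8.04%) touched a UTR only, and 3 lay in a noncoding exon of a coding gene. Over all replicate 1 peaks, 57.4% were intergenic, 35.6% intronic, 3.55% touched a coding exon and 2.65% a UTR only. Coding exons held 3.13% (2.90 to 3.38) and UTRs 2.14% of the other sparse peaks. Of the recurrent peaks with 5 or more neighbours they held 7.44% (5.16 to 10.6) and 7.71% (5.39 to 10.9).

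**Figure D3:**
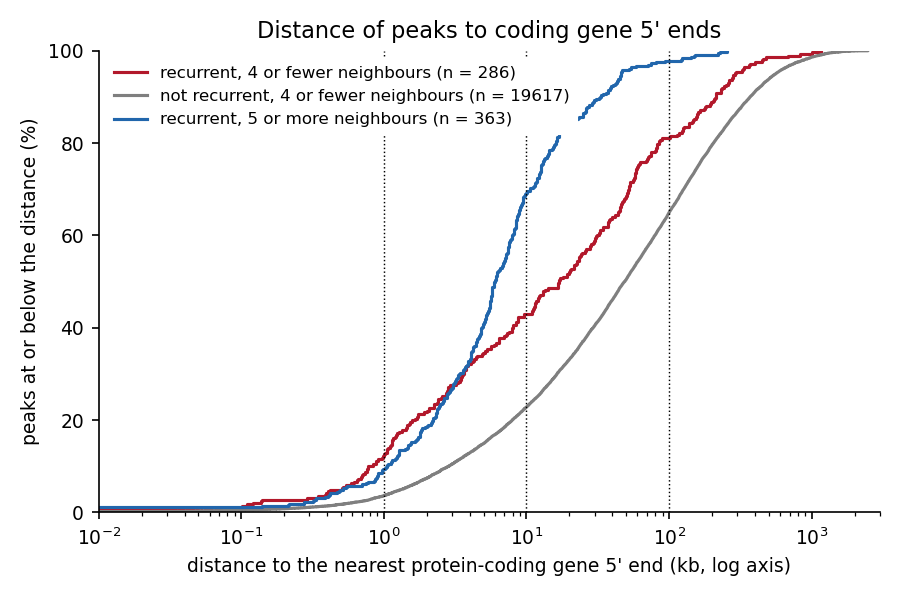
Cumulative share of peaks (y axis, %) by distance to the nearest protein-coding 5′ end (x axis, kb, log axis), with dotted lines at 1, 10 and 100 kb. The line for the 286 members runs above that of the 19617 other sparse peaks over most of the range, and below that of the 363 recurrent peaks with 5 or more neighbours at 10 kb (43.0%, 22.8% and 69.1%).

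Within 1 kb of a protein-coding 5′ end lay 36 members (12.6%, 9.23 to 16.9), beside 4.38% of all replicate 1 peaks, 3.62% (3.37 to 3.89) of the other sparse peaks and 9.37% (6.78 to 12.8) of the recurrent peaks with more neighbours. The 36 members reached 37 genes. In the 38 pairs of a member and a gene, the peak was upstream in 22, downstream in 14 and over the 5′ end in 2. Of the 36, 18 had 30 or more CpG in the 1 kb around the midpoint, beside 6.69% of all replicate 1 peaks. That limit was set after the values were seen. Of the same 36, 26 were also called against IgG, beside 51.0% of all replicate 1 peaks. Neither these traits nor the side of the peak were counted over the other replicate 1 peaks near a 5′ end. The share within 1 kb of a coding 5′ end was also compared among peaks with the same number of neighbours. It was 8.99% (4.63 to 16.7) of the members with none and 2.17% (1.93 to 2.43) of the other peaks with none. With 4 neighbours it was 17.6% (8.35 to 33.5) and 7.09% (5.37 to 9.30), and those intervals overlap.

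**Figure D4:**
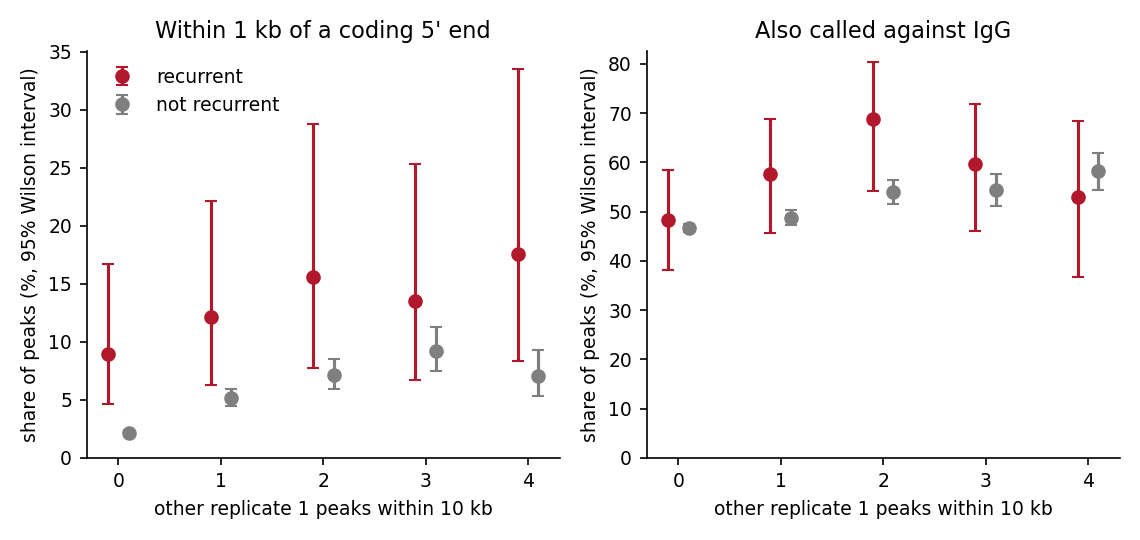
Share of peaks (y axis, %, with 95% Wilson intervals) within 1 kb of a coding 5′ end (left) and overlapped by a peak called against IgG (right), by the number of other replicate 1 peaks within 10 kb (x axis), for recurrent and non-recurrent peaks. At the promoters the recurrent peaks are higher at every number of neighbours, from 8.99% against 2.17% at 0 to 17.6% against 7.09% at 4, with intervals that overlap at 2 to 4 neighbours, whereas for IgG the intervals overlap at every number.

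The transcription factor genes among these promoters are given first. A member of 365 bp lay 771 bp upstream of Gbx1, a homeobox gene of the developing nervous system, with pileups of 3.42 and 6.0. The Nkx1-1 peak, in an intron 539 bp downstream, had 3.41 and 6.09, and that of Msx3, a homeobox gene of the dorsal neural tube, 419 bp downstream, had 3.38 and 6.0. Pax8, a factor of thyroid and kidney development, had a peak 884 bp upstream with pileups of 3.12 and 6.52 that was not called against IgG. Hhex, which acts in endoderm and blood, had a peak of 46 bp, the shortest length called in replicate 1. That peak lay 717 bp upstream, with 3.81 and 6.0. T, the mesoderm factor Brachyury, had 2 members at 994 and 694 bp upstream, with replicate 1 pileups of 3.45 and 4.99 and a single replicate 2 peak of 837 bp and 6.05 over both. Esrrg, an orphan nuclear receptor, had 3.35 and 6.41, and Scrt1, a neural zinc finger repressor, 3.42 and 6.38. None of these sites rose far above the lowest called pileups.

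Genes of signalling, channels, receptors and adhesion are given next. Grem1, a secreted antagonist of bone morphogenetic proteins, had a member of 79 bp, 290 bp downstream, with pileups of 3.55 and 6.39. Wnt8b, a Wnt ligand of the forebrain, had 3.85 and 6.0 at 655 bp downstream. Potassium channel genes gave 3 members: Kcnb2 with 4.01 and 6.0, Kcnk9 with 3.18 and 6.58 over its 5′ end, and Kcnk4 with 3.12 and 6.75. Adra2b, an alpha-2 adrenergic receptor, had 3.12 and 6.28. Opcml, a cell adhesion molecule of neurons, had 3.96 and 6.5, and Panx2, a pannexin, 3.12 and 6.65.

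The other promoters belong to no listed family. Elavl3 and Elavl4 encode neuronal RNA-binding proteins, and their pileups were 3.42 and 6.59 at Elavl3, over the 5′ end with 86 CpG in 1 kb, and 3.12 and 6.0 at Elavl4, with 13 CpG. Nxph4, a neurexophilin, had 3.4 and 6.14. The further promoters were those of Resp18, Sgms2, Igsf21, Abcb4, Sept14, Fbxo41, Prkcb, Mgl2, Gm5089, H2-Q1, Ctxn3, Ablim1, Mmp24 and a single peak shared by 1700020A23Rik, Tmem239 and Gm28372. The highest replicate 2 pileup in that list was 6.98, at Fbxo41. The last 2 promoters, of Gm11168 and Gm10715, belong to the repeated members on chromosome 9, so their identity as promoters is uncertain.

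Counted over gene families, 38 members (13.3%, 9.84 to 17.7) had a nearest coding 5′ end within 10 kb that belongs to a listed family, beside 8.86% of all replicate 1 peaks, 3.72% (3.47 to 4.0) of the other sparse peaks and 55.6% (50.5 to 60.7) of the recurrent peaks with more neighbours. At equal neighbour number the share in a listed family was 5.62% (2.42 to 12.5) of the members and 1.77% (1.56 to 2.02) of the other peaks with no neighbour, while at 1, 2 and 4 neighbours the intervals overlap. The homeobox list, without Hox, had 15 members at 12 genes (5.24%, 3.20 to 8.47), beside 0.703% of the other sparse peaks and 3.15% of all peaks. The list does not hold every homeobox gene: it leaves out, for example, Mnx1, with members 8465 and 6130 bp from its 5′ end, and Hlx, with 1 at 2887 bp, which are therefore outside both counts. Besides the promoters above, the listed genes were Gsc, Msx1, Pou3f2, Pou3f3, Pou4f1, Pou4f2 and Pou4f3. Msx1 is needed for tooth development. Its member lay 9644 bp from the 5′ end, with no other peak of either replicate within 10 kb, pileups of 5.11 and 6.95, and an overlap of 9 bases.

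Factors of other classes were fewer. The Sox, Fox, Gata, T-box and Zic group had 6 members (2.1%, beside 1.39% of all peaks), at Foxi3, Foxl2, Sox10, T and Tbx15. The Sox10 member, in a coding exon of this neural crest and glial factor, had pileups of 3.12 and 8.01 and was not called against IgG. The bHLH group had 4 (1.40%, beside 0.817%), at Ascl2, Ebf3, Neurod1 and Neurog3, and the Neurod1 member, 420 bp in a coding exon, lay wholly in a replicate 2 peak of 985 bp. Ligands and antagonists had 3, at Grem1, Wnt3 and Wnt8b (1.05%, beside 0.510%), and channels had 5, including Kcnh3 and Kcnk13 (1.75%, beside 0.545%). Neurotransmitter receptors had 3, at Adra2b, Drd1 and Gabra5 (1.05%, beside 0.378%), and neuronal adhesion genes had 1, at Opcml (0.350%, beside 0.286%). The Wilson intervals of these 6 shares all take in the share over all peaks, except that of the channels (0.749 to 4.03).

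Several lists held no member. The Hox genes had 0 of 286 members, though 268 replicate 1 peaks (1.18%) lay nearest to them, none of which was sparse. Genes of the tooth and bone matrix, ribosomal proteins, olfactory and vomeronasal receptors, and PRC2, PRC1 and SWI/SNF subunits also had 0, with an upper Wilson bound of 1.33% for each. These lists had 21, 3, 98 and 11 replicate 1 peaks, or 0.0923%, 0.0132%, 0.431% and 0.0483% of all, each below that bound.

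The cell cycle inhibitors had 1 member (0.350%, 0.0617 to 1.95), beside 7 of all replicate 1 peaks (0.0308%) and 4 of the other sparse peaks. The share thus rests on 1 peak. This member was at Cdkn2a, the site printed above. It lay 3282 bp from the outermost annotated 5′ end of the gene, and the 5′ ends of single transcripts were not used for this distance. It was 191 bp long, had pileups of 3.38 in replicate 1 and 6.0, the lowest called, in replicate 2, folds of 2.77 and 2.39, and an overlap of 130 bases. It was also called against IgG. It had 3 other replicate 1 peaks and 7 other replicate 2 peaks within 10 kb, and the CpG count of its 1 kb was 12.

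CpG content set part of the members apart. The 1 kb around a member held a median of 13.0 CpG, beside 9 over all replicate 1 peaks and 17 over recurrent peaks with more neighbours. At least 30 CpG were present at 58 members (20.3%, 16 to 25.3), beside 6.69% of all replicate 1 peaks, 4.09% (3.82 to 4.38) of the other sparse peaks and 28.9% (24.5 to 33.8) of the recurrent peaks with more neighbours. These 58 lay a median of 1593 bp from a coding 5′ end, and 18 of them (31%) were within 1 kb, against 18 of the other 228 members (7.89%, 5.05 to 12.1). By neighbour number, 6.74% (3.13 to 13.9) of the members with none and 1.71% (1.5 to 1.95) of the other peaks with none held 30 CpG or more. The members were also higher at 1 and 3 neighbours, while the intervals overlap at 2 (17.8%, 9.29 to 31.3, and 9.34%, 8.0 to 10.9) and at 4 (23.5%, 12.4 to 40, and 16%, 13.4 to 19.0). CpG content and distance to a 5′ end moved together over the members, and the part of base composition in the recurrence was not tested.

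Peaks called in replicate 1 against IgG overlapped 161 members (56.3%, 50.5 to 61.9), beside 51.0% of all replicate 1 peaks, 48.4% (47.7 to 49.1) of the other sparse peaks and 76.3% (71.7 to 80.4) of the recurrent peaks with more neighbours. That list uses the same H3K27me3 library with another control, so it repeats the call but adds no independent chromatin. Among members with no neighbour the share was 48.3% (38.2 to 58.5), beside 46.7% (45.8 to 47.5) of other peaks with none, a difference within the interval. With 2 neighbours it was 68.9% (54.3 to 80.5), beside 54.0% (51.5 to 56.5), and with 4 it was 52.9% (36.7 to 68.5), below the 58.2% (54.4 to 61.9) of the other peaks. The intervals overlap at each neighbour number. Members with an IgG-called peak had a median length of 172 bp and a median pileup of 3.37, and those without 139 bp and 3.21. At promoters, 26 of 161 IgG-called members (16.1%, 11.3 to 22.6) lay within 1 kb of a coding 5′ end, against 10 of 125 others (8.0%, 4.40 to 14.1).

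Further replicate 2 peaks were counted around the members. At least 1 replicate 2 peak besides the overlapping one lay within 10 kb of 166 members (58.0%, 52.3 to 63.6), beside 43.0% of all replicate 1 peaks and 35.1% (34.4 to 35.7) of the other sparse peaks. Among the recurrent peaks with 5 or more neighbours the share was 99.7% (98.5 to 100). These pooled shares mix neighbour numbers. With no replicate 1 neighbour the share was 27% (18.8 to 37) of the members and 26.5% (25.7 to 27.3) of the other peaks, and with 1 it was 57.6% (45.6 to 68.8) and 40.2% (38.6 to 41.8). At least 3 lay around 56 members (19.6%, 15.4 to 24.6), beside 12.4% of all replicate 1 peaks. The share was 3.62% (3.37 to 3.90) of the other sparse peaks and 80.7% (76.3 to 84.4) of the recurrent peaks with 5 or more neighbours. For 3 or more, the members were at 4.49% (1.76 to 11) and the other peaks at 0.769% (0.632 to 0.936) with no neighbour, and at 50% (34.1 to 65.9) and 29.9% (26.5 to 33.5) with 4. The most, 7, lay around Cdkn2a and around a peak 11378 bp from the 5′ end of Pax6, the eye and forebrain factor, where the pileups were 3.49 and 6.26. A peak near Igf2bp1, an oncofetal RNA-binding protein, and 1 near Pax3, a neural crest and muscle factor, had 6. Pou4f1, Tbx15, Mdga1 and a second Pax6 peak had 5, and 21 members had 4. The members were chosen by an overlap with replicate 2, and a peak where replicate 2 calls are dense is more easily overlapped. The rule therefore favours sites with further replicate 2 peaks, and these counts are no independent support. Replicate 2 is the deeper library, and its part in these counts was not tested.

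**Figure D5:**
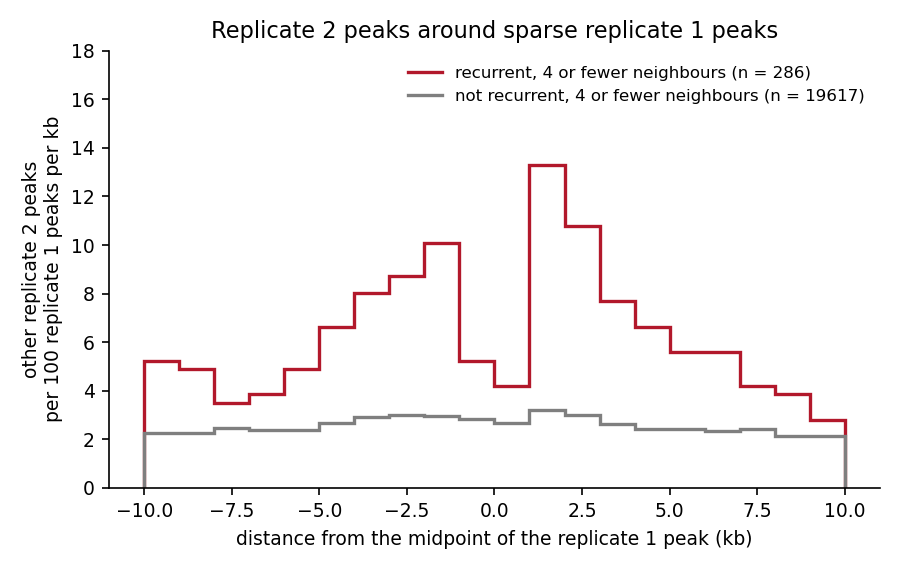
Other replicate 2 peaks per 100 replicate 1 peaks in each kb (y axis) by distance from the midpoint of the replicate 1 peak (x axis, kb), for the 286 members and the 19617 other sparse peaks. Around the members the number reaches 10.1 and 13.3 at 1 to 2 kb on either side and falls to 5.24 and 2.80 at the ends, while around the other sparse peaks it stays between 2.13 and 3.21; the dip at the centre is where the overlapping peak itself was left out.

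Denser groups of peaks lay near a minority of the members. A replicate 1 peak with 5 or more neighbours lay within 50 kb of 45 members (15.7%, 12 to 20.4), beside 18.4% of all replicate 1 peaks and 6.57% (6.23 to 6.92) of the other sparse peaks. At equal neighbour number the members were not uniformly higher. Their share was 4.55%, 11.1% and 21.2% with 1, 2 and 3 neighbours, beside 5.93%, 15.7% and 27.1% of the other peaks, and 67.6% beside 51.6% with 4, and the intervals overlap at each of these numbers. At the limit of the rule, the 34 members with 4 neighbours and the 42 recurrent peaks with 5 had a median length of 182 and 232 bp and a median of 2.50 and 3.00 other replicate 2 peaks within 10 kb. The shares within 1 kb of a coding 5′ end were 17.6% (8.35 to 33.5) and 4.76% (1.32 to 15.8), those near a listed family 26.5% (14.6 to 43.1) and 47.6% (33.4 to 62.3), and those called against IgG 52.9% (36.7 to 68.5) and 78.6% (64.1 to 88.3). The intervals overlap in all 3 pairs.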

How the data were processed

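ChIP-seq libraries of P3 molar mesenchyme were aligned to mm10 by the authors, whose notes name BWA, SAMtools, Partek and MACS2 2.1.1. Per the file headers, broad peaks were called at p 0.005, with 1 tag kept per position, for each H3K27me3 library against its own input and for replicate 1 also against IgG, giving 3 lists. The deposited pileup is a fragment signal, scaled in replicate 1, so the pileups of the 2 replicates are not on a common scale. The deposited fold enrichment is a ratio to the local control, and the deposited p-values are −log10 values. No replicates were pooled.

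From these lists, overlap (1 base or more) and neighbours within 10 kb were counted with Python 3.11.15 on the nuclear chromosomes, using GENCODE M21 genes and the RefSeq GRCm38.p6 sequence, in which 0 peaks ran past a chromosome end. Intervals are 95% Wilson intervals (SciPy 1.17.1). The counting was tested on simulated peaks. With peak lists only and 2 libraries, no test between groups was made. The members, gene families and limits were chosen with earlier results of these data known. Every member within 1 kb of a coding 5′ end is named, as are the members in listed families, the 10 highest in replicate 2 and those with most replicate 2 neighbours. Sequences within a UTR or on chromosome 18 were not printed. Alternatives are listed in the closing section.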

Additional observations from a re-analysis of the deposited data

How the results depend on the processing

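No paired analysis was possible because the results come from counts of peaks and not from a test. Of 50 values under 18 alternatives, 27 stayed within 1.5 times the count or within the interval of the share, and 23 moved. The cause was not tested unless stated. With both lists first limited to a fold enrichment of 3 or more, and neighbours counted again on what was left, the rule gave 4 peaks in place of 286, not all of them members. A −log10 p of 3 or more gave 13 in the same way. The count was 176 when the replicate 2 peak had to cover at least 50% of the member, 1508 when a replicate 2 peak within 1 kb sufficed, 89 with no neighbour allowed, 435 with neighbours counted within 5 kb, and 430 with replicate 2 as the base. Leaving out a replicate drops the overlap, and then 19903 (without replicate 2) and 32595 (without replicate 1) sparse peaks remained.

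The share called against IgG moved to 75% and 69.2% under the fold and p limits (3 of 4 and 9 of 13), 48.3% with no neighbour, 62.3% with 5 kb, and 41.7% when the list against IgG was the base and the input list the support. Without a replicate it ran from 1.73% to 48.5%, the lower value being that of replicate 2 peaks, which the list did not come from. The share near a coding 5′ end moved to 25% and 23.1% under the fold and p limits, 8.99% with no neighbour, 34.6% with a window of 5 kb and 18.9% with the 5′ ends of all transcripts, and ran from 2.61% to 3.75% without a replicate. Leaving out repeated members or counting each replicate 2 peak once, both added after the data were seen, gave 278 and 283 members, 56.5% and 56.2% called against IgG, and 12.2% and 12.4% near a coding 5′ end. Depth limits what these lists can show: a peak missing from a list may have fallen just under its limit.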
